A study of Homo sapiens with 18 samples.

Results

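K562 cells, an established line of human chronic myelogenous leukaemia, were given heteronemin and TNFalpha together, and the net transcript state of these cotreated cells over untreated cells was estimated. No array measured that contrast. It was obtained per gene as the sum of 2 measured log2 ratios, cotreated over TNFalpha-treated cells and TNFalpha-treated over untreated cells. Each comparison had 3 biological replicates, and each replicate was hybridised on 2 arrays with the Cy3 and Cy5 dyes exchanged. The sum therefore rests on 12 of the 18 arrays of the study. The other 6 arrays, with the same layout, set cells given heteronemin alone against untreated cells and are used as the reference for heteronemin without the cytokine. All cells had been thawed 10 days earlier. Heteronemin (6 µM), or its solvent DMSO in the untreated and TNFalpha-treated cells, was added at 0 h. TNFalpha (10 ng/mL), or water in the untreated and heteronemin-treated cells, was added at 2 h, and RNA was taken at 6 h, so that the cytokine acted for 4 h. Of each RNA, 700 ng was labelled. A single cell line at 1 dose of each agent and 1 harvest time was studied.

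Heteronemin is a sesterterpenoid made by marine sponges. TNFalpha is a cytokine whose receptor activates the IKK kinases, which release NF-kB transcription factors from their IkB inhibitors. NF-kB then induces cytokines, adhesion molecules and survival factors, and it also induces its own inhibitors, among them IkBalpha (NFKBIA) and A20 (TNFAIP3), which close the response. A separate pathway, the integrated stress response, slows protein synthesis when proteins misfold or amino acids run short, and its factors ATF4 and CHOP (DDIT3) induce genes of amino acid supply, redox defence and cell death. Because a log2 ratio carries no expression level, the erythroid identity of K562 could not be checked against the level of its markers, and fewer cells of a kind and less RNA per cell cannot be told apart in such bulk RNA.

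The sums covered 18334 genes. The SD of the sums over genes was 0.367 in replicate 1, 0.240 in replicate 2 and 0.201 in replicate 3, so replicate 1 stood apart. Several genes with high TNFalpha ratios in replicates 2 and 3 lay near 0 in replicate 1, and these are described with and without it. The SD over the 3 sums of a gene had a median of 0.132, against 0.157 had the parts of the sum varied independently, and 61.0% of genes had the smaller variance. The TNFalpha-treated cells stand on opposite sides of the parts of the sum. Whether the same RNA was used on both sides is not stated in the labels. Nor do the labels say whether replicate numbers match across comparisons. The values per replicate and the SDs given below add same-numbered parts. Unless a block is named, the p-values come from a fit without that pairing, so such an SD is not the spread behind its p-value.

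In cotreated cells, limma called 230 genes different from untreated cells at a Benjamini-Hochberg adjusted p under 0.05, which is 1.25% of the genes tested. Of these, 143 were higher (0.78%) and 87 were lower (0.475%). The change reached 2-fold for 17 of the higher genes and for 3 of the lower genes, and the median size among the called genes was 0.58 on the log2 scale. At an unadjusted p under 0.05 there were 2284 genes (12.5%), 1111 higher (6.06%) and 1173 lower (6.4%). The calls depended on single replicates: without replicate 1 there were 1334, without replicate 2 only DDIT3 was called, and without replicate 3 there was none, with 1316 genes at an unadjusted p under 0.05. A trended and robust prior in limma also gave none, with 1874 genes at an unadjusted p under 0.05. With the replicate number as a block there were 0 calls where sums were taken within a number (2433 genes at an unadjusted p under 0.05), so that every call given here for cotreated over untreated cells was lost, and 257 calls with an additive effect of the number, 179 of them among the 230. With the arrays scaled to each other 220 genes were called, 110 in each direction, and 105 of them were among the 230.

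For most called genes the larger part of the sum was cotreated over TNFalpha-treated cells. Of the 143 higher genes, 139 were also called higher in that part, and all 87 lower genes were also called lower there, where 1200 genes (6.55%) were called in all. That part is contained in the sum and uses the same arrays and fit, so this overlap is partly built in. Over the 230 genes the median size of that part was 0.54, and the median size of the TNFalpha part was 0.045. For 4 genes the TNFalpha part was the larger: NFKBIA, BCL3, TNFAIP3 and OPTN, the last of which encodes optineurin, a ubiquitin-binding adaptor of autophagy and of NF-kB signalling. These are also the 4 higher genes that were not called in cotreated over TNFalpha-treated cells. TNFalpha over untreated cells gave no call by itself (0 genes, 0.0%, with 315 genes or 1.72% at an unadjusted p under 0.05). The fit used a spread shared by the 3 comparisons. In replicate 1 the SD over genes was 0.141 for TNFalpha over untreated cells. It was 0.329 for heteronemin over untreated and 0.384 for cotreated over TNFalpha-treated cells. The absence of calls does not show that TNFalpha had no effect. NFKBIA, at 2.48, 2.99 and 3.40 under TNFalpha, was among the uncalled genes.

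**Figure D1:**
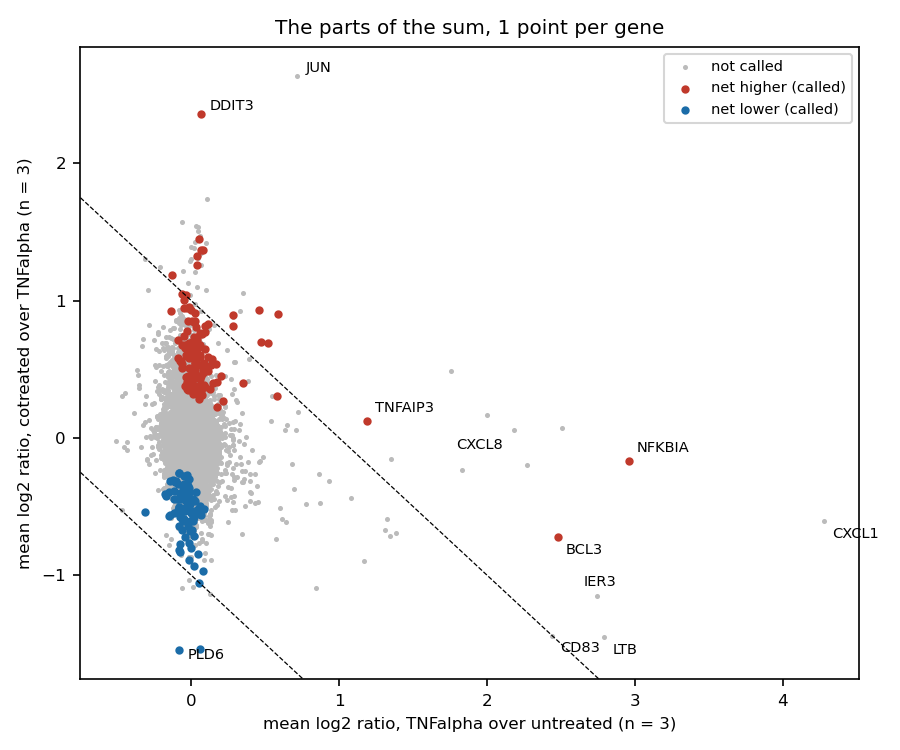
Each point is 1 of 18334 genes, with the mean log2 ratio of TNFalpha over untreated cells on the x axis and that of cotreated over TNFalpha-treated cells on the y axis (3 biological replicates each). Red points are the 143 genes called higher and blue points the 87 genes called lower for the sum of the axes, and the dashed lines mark a sum of 1 and of −1; most coloured points lie near 0 on the x axis, while NFKBIA, BCL3 and TNFAIP3 lie to the right.

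DDIT3, which encodes CHOP, a transcription factor of the integrated stress response, had the smallest adjusted p of all genes. It stood at 2.21, 2.73 and 2.35 on the log2 scale in replicates 1 to 3, all well above 0 and close to each other. Its mean of 2.43 ± 0.27 (SD, n = 3), a 5.38-fold increase, had an adjusted p of 0.00282. CEBPB, a partner of CHOP, was at 1.20, 1.76 and 1.38 and rose by a mean of 1.45 ± 0.28 (adjusted p = 0.00823). CEBPG, which forms dimers with ATF4, rose by 0.94 ± 0.29 (adjusted p = 0.0382). These were the 3 members called higher among the 11 stress transcription factors, and no member was called lower. Over all genes 0.78% were called higher and 0.475% lower, and lists of such sizes would hold few or no calls at those shares. The median of the 11 was 0.34 against 0.007 over all genes. ATF3, a repressor induced by ATF4, was at 1.06, 2.62 and 1.86. Its mean of 1.85 ± 0.78 did not pass (adjusted p = 0.0648), nor did ATF4 itself, at 0.34 ± 0.19 (adjusted p = 0.157). The transcript of ATF4 is known to be controlled mainly through its translation.

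Of the 14 signalling genes downstream of ATF4, 4 rose (0.78% of all genes did), none fell, all 14 means lay above 0, as did 52.3% of all genes, and their median was 0.64. SESN2, an inhibitor of mTORC1 signalling, was at 1.37, 1.77 and 1.16 in the replicates, with a mean of 1.44 ± 0.31 (adjusted p = 0.0101). PPP1R15A, the phosphatase subunit GADD34 that restores translation, was at 1.53, 1.41 and 1.23, and its mean was 1.39 ± 0.15 (adjusted p = 0.0413). CHAC1, which degrades glutathione, was at 1.04, 1.64 and 1.43, and its mean was 1.37 ± 0.30 (adjusted p = 0.0124). All 9 of these values lay above 1. STC2, a secreted glycoprotein, rose by 0.94 ± 0.25 (adjusted p = 0.0369). TRIB3, a pseudokinase that restrains ATF4, was at −0.37, 0.68 and 0.74. It thus differed in sign between replicates, and its mean of 0.35 did not pass (adjusted p = 0.698).

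Genes of amino acid supply moved less. Of 20 measured members 2 rose (0.78% of all genes did), none fell, 17 means were above 0 and the median was 0.25. At an unadjusted p under 0.05, 12 members were higher and 1 lower, against 6.06% and 6.4% of all genes. SLC38A2, a transporter of neutral amino acids, was at 0.86, 1.07 and 0.80, a mean of 0.91 ± 0.14 (adjusted p = 0.00894). PSAT1, an enzyme of serine synthesis, rose by 0.65 ± 0.10 (adjusted p = 0.0403), while PHGDH, which acts just before it, was at 0.55 ± 0.30 (adjusted p = 0.0543). Asparagine synthetase, ASNS, was at 0.70, 0.06 and 0.69, a mean that did not pass (adjusted p = 0.257). None of 18 cytosolic aminoacyl-tRNA synthetases and none of 17 ER chaperone genes was called, with medians of 0.03 and −0.10. The highest ER member was DNAJB9, a co-chaperone of BiP, at 0.97 ± 0.30 (adjusted p = 0.0548).

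The promoters of 2 of these stress genes held a sequence known to be bound by their regulators, and are shown for the position of that match. The windows run from 250 bases before to 50 after the RefSeq gene start (GRCh38.p14). Capitals mark a C/EBP-ATF composite element (TTNCATCA) in CHAC1 (chr15:40953221-40953520, plus strand) at position −209 from the start, and a cAMP response element (TGACGTCA, which reads the same on both strands) in PPP1R15A (chr19:48872171-48872470, plus strand) at position −58.
CHAC1: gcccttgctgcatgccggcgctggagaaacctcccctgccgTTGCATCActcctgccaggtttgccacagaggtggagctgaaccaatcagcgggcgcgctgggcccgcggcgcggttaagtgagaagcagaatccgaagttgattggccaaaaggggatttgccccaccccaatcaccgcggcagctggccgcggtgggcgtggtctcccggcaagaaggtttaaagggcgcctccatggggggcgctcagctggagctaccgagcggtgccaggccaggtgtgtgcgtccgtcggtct
PPP1R15A: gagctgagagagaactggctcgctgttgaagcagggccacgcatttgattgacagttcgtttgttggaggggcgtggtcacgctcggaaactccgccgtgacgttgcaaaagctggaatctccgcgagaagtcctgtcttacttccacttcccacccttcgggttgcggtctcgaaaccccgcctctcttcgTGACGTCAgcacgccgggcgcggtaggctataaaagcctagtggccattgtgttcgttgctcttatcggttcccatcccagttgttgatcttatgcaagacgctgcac
Both strands were searched. The composite element was found in 1 of the 15 genes with the highest called net ratio, against 3.62% of 35116 promoter windows, and in none of the 13 windows found for the 15 lowest. The cAMP response element was likewise in 1 of 15, against 1.85% of windows, and in none of the 13. Such matches describe letters in a window and not binding.

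**Figure D2:**
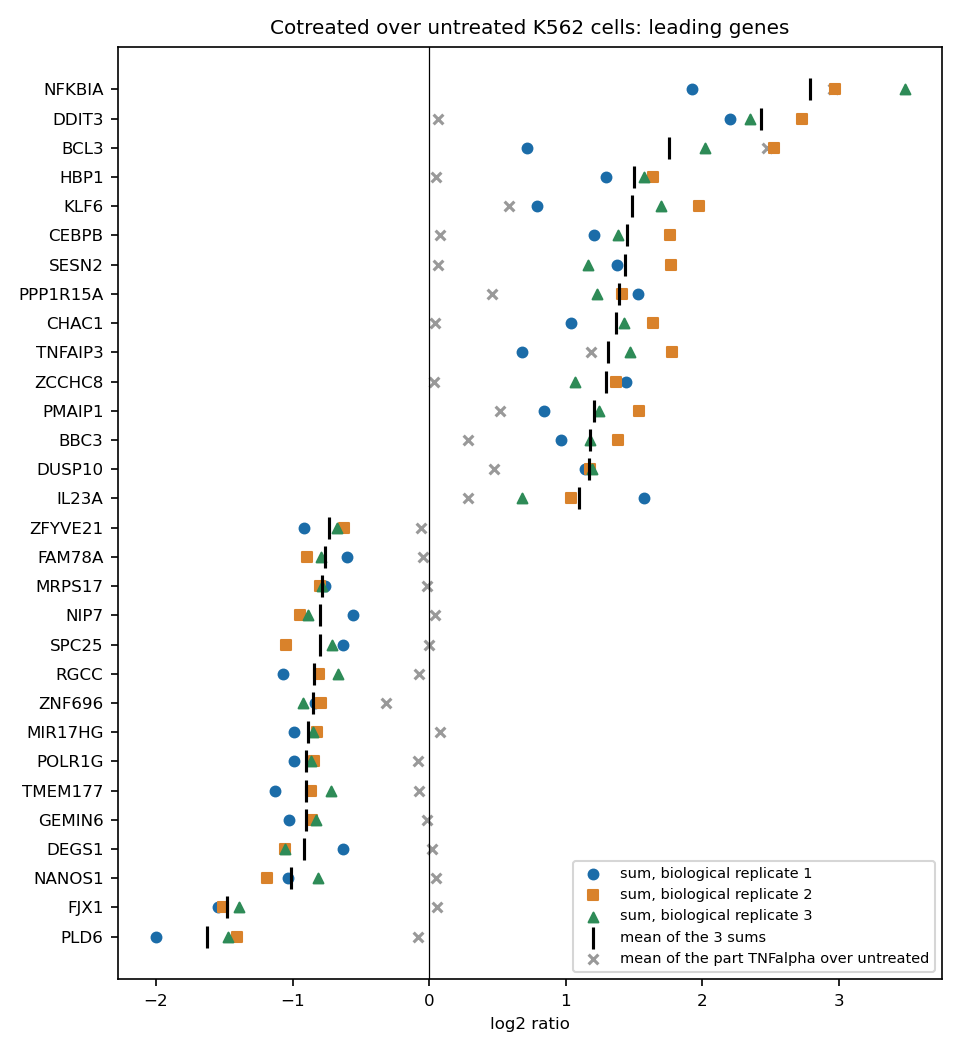
Log2 ratios of cotreated over untreated cells for the 15 highest and 15 lowest called genes, with 1 symbol per biological replicate, a black bar for the mean of the 3 sums and a grey cross for the mean of the TNFalpha part. All replicates of each gene lie on the same side of 0, and the grey cross lies close to 0 for most genes but at 2.96 for NFKBIA, 2.48 for BCL3 and 1.19 for TNFAIP3.

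The highest called gene was NFKBIA, which encodes the inhibitor IkBalpha. It stood at 1.92, 2.97 and 3.48 in replicates 1 to 3, lowest in replicate 1. The mean of 2.79 ± 0.79 (adjusted p = 0.0369) was a 6.92-fold increase, made of 2.96 for TNFalpha over untreated and −0.17 for cotreated over TNFalpha-treated cells. BCL3, an atypical IkB protein that works with NF-kB in the nucleus, was at 0.72, 2.53 and 2.02, again lowest in replicate 1. Its mean was 1.76 ± 0.94 (adjusted p = 0.0490), and with the arrays scaled to each other it was 2.76 and not called (adjusted p = 0.0677). TNFAIP3, the deubiquitinase A20, was at 0.68, 1.78 and 1.47, a mean of 1.31 ± 0.57 (adjusted p = 0.0450). Its 2 array features lay far apart, at 0.30 and 2.33. OPTN, named after its values were seen, was at 1.03, 1.10 and 0.52, a mean of 0.88 ± 0.32 (adjusted p = 0.0371). Thus 3 of 12 feedback inhibitors of NF-kB rose, against 0.78% of all genes, and none fell, with a median of 0.21. Among the members that did not pass, NFKBIZ, a nuclear IkB protein, was at 1.20 ± 0.90 (adjusted p = 0.289), TNIP1, a partner of A20, at 0.30 ± 0.13 (adjusted p = 0.0755), and TNIP2 at −0.38 (adjusted p = 0.234). These lists were drawn up with earlier results of the same arrays known, so their counts are descriptions.

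The promoters of NFKBIA and TNFAIP3 are shown because both genes owed most of their net ratio to TNFalpha and both windows held a kB element, the sequence bound by NF-kB. Capitals mark the matches to this element, spelled GGG, then any NNN, then TTCC, which here lie on the opposite strand of the gene and read as its reverse complement. NFKBIA (chr14:35404700-35404999, minus strand) has 1 match at position −81 from the start, and TNFAIP3 (chr6:137867009-137867308, plus strand) has 2, at −67 and −55.
NFKBIA: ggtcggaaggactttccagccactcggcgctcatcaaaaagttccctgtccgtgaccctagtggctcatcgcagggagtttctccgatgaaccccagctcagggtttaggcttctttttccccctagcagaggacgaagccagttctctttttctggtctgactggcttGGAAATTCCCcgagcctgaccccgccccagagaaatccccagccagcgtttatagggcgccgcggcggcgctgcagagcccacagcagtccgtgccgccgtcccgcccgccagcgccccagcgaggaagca
TNFAIP3: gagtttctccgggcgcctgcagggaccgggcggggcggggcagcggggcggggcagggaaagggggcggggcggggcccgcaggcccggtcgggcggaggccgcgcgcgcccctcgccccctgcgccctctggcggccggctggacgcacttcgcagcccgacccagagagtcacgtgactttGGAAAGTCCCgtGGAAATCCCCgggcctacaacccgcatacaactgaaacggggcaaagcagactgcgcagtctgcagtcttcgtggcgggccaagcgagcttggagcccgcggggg
With both strands searched, the kB element was in 3 of the 15 highest called genes (NFKBIA, TNFAIP3 and PMAIP1), in 1 of the 13 windows found for the 15 lowest (FAM78A), and in 6.52% of all windows. It was in 5 of the 9 windows found for the 12 genes with the highest ratios of TNFalpha over untreated cells. No match of one motif overlapped a match of another in the windows printed here.

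The other genes with high TNFalpha ratios had large net values that did not pass, and their 3 sums lay far apart. CXCL8, a chemokine for neutrophils, was at 0.02, 3.64 and 3.06, near 0 in replicate 1 and high in the others (mean 2.24 ± 1.95, adjusted p = 0.242). CXCL1, a related chemokine named after its values were seen, was at 0.01, 5.53 and 5.46 (mean 3.67 ± 3.17, adjusted p = 0.350), the same split on a wider range. PLAU, the urokinase, was at −0.16, 3.10 and 3.27, and IER3, an early response gene linked to survival, at −0.27, 2.66 and 2.38. CD69, an activation marker of leukocytes, was at 0.77, 3.52 and 3.44. ICAM1, an adhesion molecule, was at −0.36, 1.30 and 1.13. In each of these genes replicate 1 was the lowest.

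Other genes split the other way. LTB, a membrane-bound cytokine of the TNF family, was at 3.24, 0.30 and 0.49, high in replicate 1 alone. RELB, a subunit of NF-kB, was at 2.77, 1.39 and 0.62, with replicate 1 again the highest. The transcripts of the remaining subunits lay closer to 0: NFKB2 was at 0.24 ± 0.18, REL at 0.32 ± 0.38, NFKB1 at 0.13 ± 0.18 and RELA at −0.07 ± 0.18, and none passed. TNF, the gene of the cytokine itself, was at 0.06 ± 0.07 (adjusted p = 0.882). Without replicate 1 in any comparison, limma placed CXCL8 at 3.35 (adjusted p = 0.000246), CXCL1 at 5.49 (adjusted p = 1.99e-05), CD69 at 3.48 (adjusted p = 1.54e-05) and IER3 at 2.52 (adjusted p = 6.33e-05). In the same setting LTB was at 0.39 (adjusted p = 0.397) and RELB at 1.01 (adjusted p = 0.267). That setting leaves 2 replicates a comparison. These genes were singled out by their values in the replicate left out, so the p-values without it are no independent support.

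**Figure D3:**
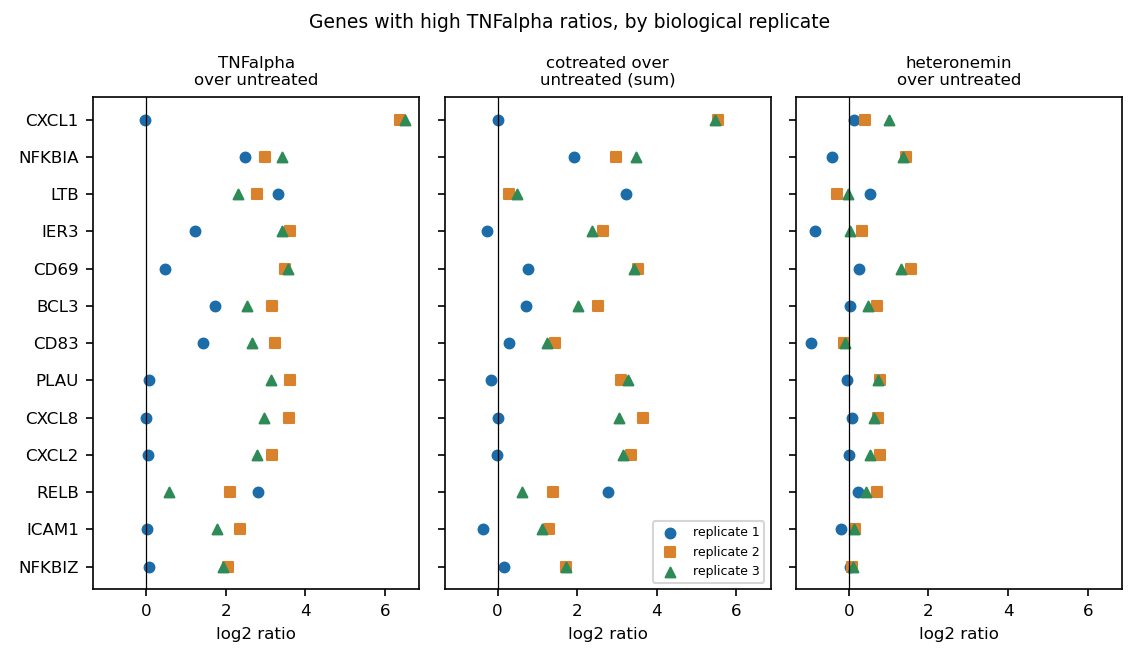
Log2 ratios (x axis) of 13 genes with high TNFalpha ratios in each biological replicate, for TNFalpha over untreated cells, for cotreated over untreated cells (the sum) and for heteronemin over untreated cells. Replicate 1 (blue circles) lies near 0 for CXCL1, PLAU, CXCL8, CXCL2, ICAM1 and NFKBIZ under TNFalpha and in the sum, whereas LTB and RELB are highest in replicate 1.

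Across the NF-kB lists by role, 1 of 18 cytokines and chemokines rose, and none of 5 subunits, 12 surface and adhesion genes, 17 survival and enzyme effectors or 17 receptor and IKK components was called in either direction. Over all genes 1.25% were called, so lists of these sizes would hold few or no calls at that share. Their medians lay between 0.02 and 0.24. The cytokine that rose was IL23A, a subunit of interleukin 23, at 1.57, 1.04 and 0.68, highest in replicate 1. Its mean was 1.10 ± 0.45 (adjusted p = 0.0490), of which 0.81 came from cotreated over TNFalpha-treated cells and 0.28 from TNFalpha. At an unadjusted p under 0.05, 7 of the 18 cytokines and chemokines were higher and none lower, against 6.06% and 6.4% of all genes. MAP3K8, a kinase upstream of MEK, was the highest of the receptor and IKK components at 0.02, 1.36 and 1.18 (mean 0.85 ± 0.73, adjusted p = 0.158), and again replicate 1 stood near 0. BIRC2, an IAP ubiquitin ligase at the receptor, was at 0.35 ± 0.10 (adjusted p = 0.0860).

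Early transcription factors and phosphatases included 3 genes that rose among 28, against 0.78% of all genes, with a median of 0.11 and none called lower. KLF6, a zinc finger factor, was at 0.79, 1.97 and 1.70 (mean 1.49 ± 0.62, adjusted p = 0.0329), and its 4 array features ran from 0.22 to 2.4. DUSP10, a phosphatase of the kinases JNK and p38, was nearly the same in the replicates, at 1.14, 1.17 and 1.19 (mean 1.17 ± 0.02, adjusted p = 0.0115), and 0.47 of it was the TNFalpha part. DUSP16, which also acts on JNK, rose by 0.74 ± 0.11 (adjusted p = 0.00894). JUN, a subunit of AP-1, had the highest mean of the list at 3.36 ± 1.02, from 4.39, 3.32 and 2.35 in the replicates. All 3 values were high, and the mean did not pass (adjusted p = 0.134). JUNB was at 0.17, 0.56 and 1.14 (adjusted p = 0.359), and SRF, a factor that drives many early genes, at −0.41 ± 0.12 (adjusted p = 0.0747). MYC was at −1.87, 0.09 and 0.17. Its mean of −0.53 (adjusted p = 0.807) rested on replicate 1 and was 0.13 without it.

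Among death genes, 2 BH3-only members rose, of 12 genes of the pro-death BCL2 family, and none fell (median 0.03). Over all genes 0.78% were called higher and 0.475% lower. PMAIP1, which encodes NOXA, was at 0.84, 1.54 and 1.25 (mean 1.21 ± 0.35, adjusted p = 0.0155). BBC3, which encodes PUMA, was at 0.97, 1.39 and 1.18 (mean 1.18 ± 0.21, adjusted p = 0.00823). Both lay above 0 in every replicate, and the TNFalpha part was 0.52 for PMAIP1 and 0.28 for BBC3. The 10 array features of PMAIP1 lay between 1.14 and 1.29, whereas the 3 of BBC3 ran from 0.11 to 2.34. BMF, another BH3-only gene, was at 0.56 ± 0.13 (adjusted p = 0.0654), and BCL2L11, which encodes BIM, at −0.12 ± 0.13 (adjusted p = 0.637). CASP10, an initiator caspase, rose by 0.40 ± 0.11 (adjusted p = 0.0404) as the 1 member called among 16 death receptor and caspase genes. The TRAIL receptors did not pass, with TNFRSF10B at 0.51 ± 0.18 (adjusted p = 0.0725) and TNFRSF10A at −0.31 ± 0.04 (adjusted p = 0.0678). None of 8 survival genes of the BCL2 and IAP families was called. MCL1 was at 0.11 ± 0.14 and BCL2 at 0.06 ± 0.08. TP53INP1, a stress-induced regulator of autophagy and death, rose by 0.54 ± 0.18 (adjusted p = 0.0383) as the 1 member called among 17 p53 targets, whose median was −0.05. With 1.25% of all genes called, 1 call or none in a list of this size does not set the list apart.

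Outside these pathways, HBP1, a repressor of cell cycle genes, was at 1.29, 1.64 and 1.57, all within a narrow range, a mean increase of 2.83-fold (SD 0.18 on the log2 scale, n = 3, adjusted p = 0.00352). ZCCHC8, a scaffold of the nuclear exosome targeting complex, rose by 1.29 ± 0.20 (adjusted p = 0.00738). MAFG, a small MAF protein that pairs with NRF2, rose by 0.77 ± 0.14 (adjusted p = 0.0123) and was the 1 member called of 20 antioxidant genes (median 0.02). HMOX1, a haem oxygenase and classic NRF2 target, was at −0.11 ± 0.20 (adjusted p = 0.785). None of 19 heat shock genes or 28 proteasome subunits was called, against 1.25% of all genes, with medians of 0.01 and 0.01. HSPH1, a large cytosolic chaperone, was at 0.40 ± 0.18 (adjusted p = 0.0537).

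The list of metallothionein and zinc response genes had the highest list median, 1.39 over 13 members, but none was called. Metallothioneins, which are small metal-binding proteins, made up 10 of the 13, and their own median was 1.46. The median of the 13 in replicates 1 to 3 was 1.06, 2.59 and 0.38, so that replicate 2 was far above replicate 3. MT1F was at 1.17, 2.33 and 0.66 (mean 1.39 ± 0.86, adjusted p = 0.212) and MT2A at 1.23, 2.79 and 0.53 (mean 1.52 ± 1.16, adjusted p = 0.340). SLC30A1, a zinc exporter, was at 0.72, 1.91 and 0.86 (mean 1.16 ± 0.65, adjusted p = 0.131). Metallothionein genes are close copies of each other, so their probes may share signal. At an unadjusted p under 0.05, 8 of the 13 were higher and none lower, against 6.06% and 6.4% of all genes.

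The transcripts that fell did so by smaller amounts. PLD6, a phospholipase of the mitochondrial surface, was at −2.00, −1.41 and −1.47 and had the lowest mean, −1.63 ± 0.33 (adjusted p = 0.0330). FJX1, a homologue of the four-jointed kinase of Drosophila, was at −1.55, −1.51 and −1.39, nearly the same in the replicates (mean −1.48 ± 0.08, adjusted p = 0.00352). NANOS1, an RNA-binding repressor of translation, was at −1.03, −1.18 and −0.81 (mean −1.01 ± 0.19, adjusted p = 0.0128). These were the 3 genes that fell by 2-fold or more. DEGS1, the desaturase that completes ceramide synthesis, fell by 0.91 ± 0.24 (adjusted p = 0.0371). RGCC, a regulator of the cell cycle, fell by 0.85 ± 0.20 (adjusted p = 0.0329), and SPC25, a subunit of the kinetochore complex NDC80, fell by 0.80 ± 0.22 (adjusted p = 0.0364).

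Among the other members of the 15 lowest genes, POLR1G, a subunit of RNA polymerase I, was at −0.99, −0.84 and −0.86 (mean −0.90 ± 0.08, adjusted p = 0.00738). NIP7, a factor of ribosome assembly, was at −0.56, −0.95 and −0.88 (mean −0.80 ± 0.21, adjusted p = 0.0372). GEMIN6, of the SMN complex that assembles spliceosomal particles, was at −1.03, −0.86 and −0.83 (mean −0.90 ± 0.11, adjusted p = 0.0261). MRPS17, a protein of the mitochondrial ribosome, fell by 0.78 ± 0.02 (adjusted p = 0.0193), and MIR17HG, the host transcript of a cluster of growth-promoting microRNAs, fell by 0.89 ± 0.09 (adjusted p = 0.0229). Of 25 ribosome biogenesis factors none was called, 22 means lay below 0 and 10 members were lower at an unadjusted p under 0.05, against 6.4% of all genes. Their median of −0.30 came from −0.73, −0.10 and −0.12 in the replicates, with replicate 1 the lowest by far. RRS1, a factor of the large ribosomal subunit, was at −1.68, −0.71 and −1.06 (adjusted p = 0.172), and URB2 at −1.34, −0.64 and −0.67 (adjusted p = 0.156). None of 33 cytosolic ribosomal proteins was called (median 0.02).

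Of the other gene groups, none of 31 G1/S and replication genes was called, and their median of −0.16 came from −0.43, 0.03 and −0.04 in the replicates. As 1.25% of all genes were called, 1 call or none in the groups of this paragraph is near that share. FEN1, a nuclease of replication, was at −1.20, −0.40 and −0.42 (adjusted p = 0.0936). Of 28 mitosis genes 1 rose, CDC25C, a phosphatase that activates CDK1, by 0.57 ± 0.18 (adjusted p = 0.0458), and the median was −0.03. FAM83D, a spindle protein, was the lowest of them at −0.93 ± 0.39 (adjusted p = 0.0548). Core histone genes had a median of 0.30 from 0.79, 0.03 and 0.05, with replicate 1 again apart, and none of 14 was called. None of 18 tubulins was called, although 8 were lower and 1 higher at an unadjusted p under 0.05 (median −0.15), against 6.4% and 6.06% of all genes. The median was −0.12 for 16 cholesterol synthesis genes, −0.03 for 18 glycolysis genes, 0.04 for 17 interferon-stimulated genes, 0.07 for 19 autophagy genes, 0.04 for 10 genes of the MYC and MAX network and 0.01 for 10 reference genes. None of their members was called.

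Cell identity genes had list medians near 0. None of 22 erythroid genes, 9 megakaryocytic genes, 11 lymphoid markers and 12 monocyte and granulocyte markers was called, against 1.25% of all genes, and the medians were −0.001, 0.06, 0.03 and 0.03. GATA1, the master factor of erythroid cells, was at 0.24, 0.00 and 0.10 (adjusted p = 0.520). HBG1, a fetal globin gene with close copies, was at 0.97, 0.04 and 0.02 (adjusted p = 0.646), high in replicate 1 alone.

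**Figure D4:**
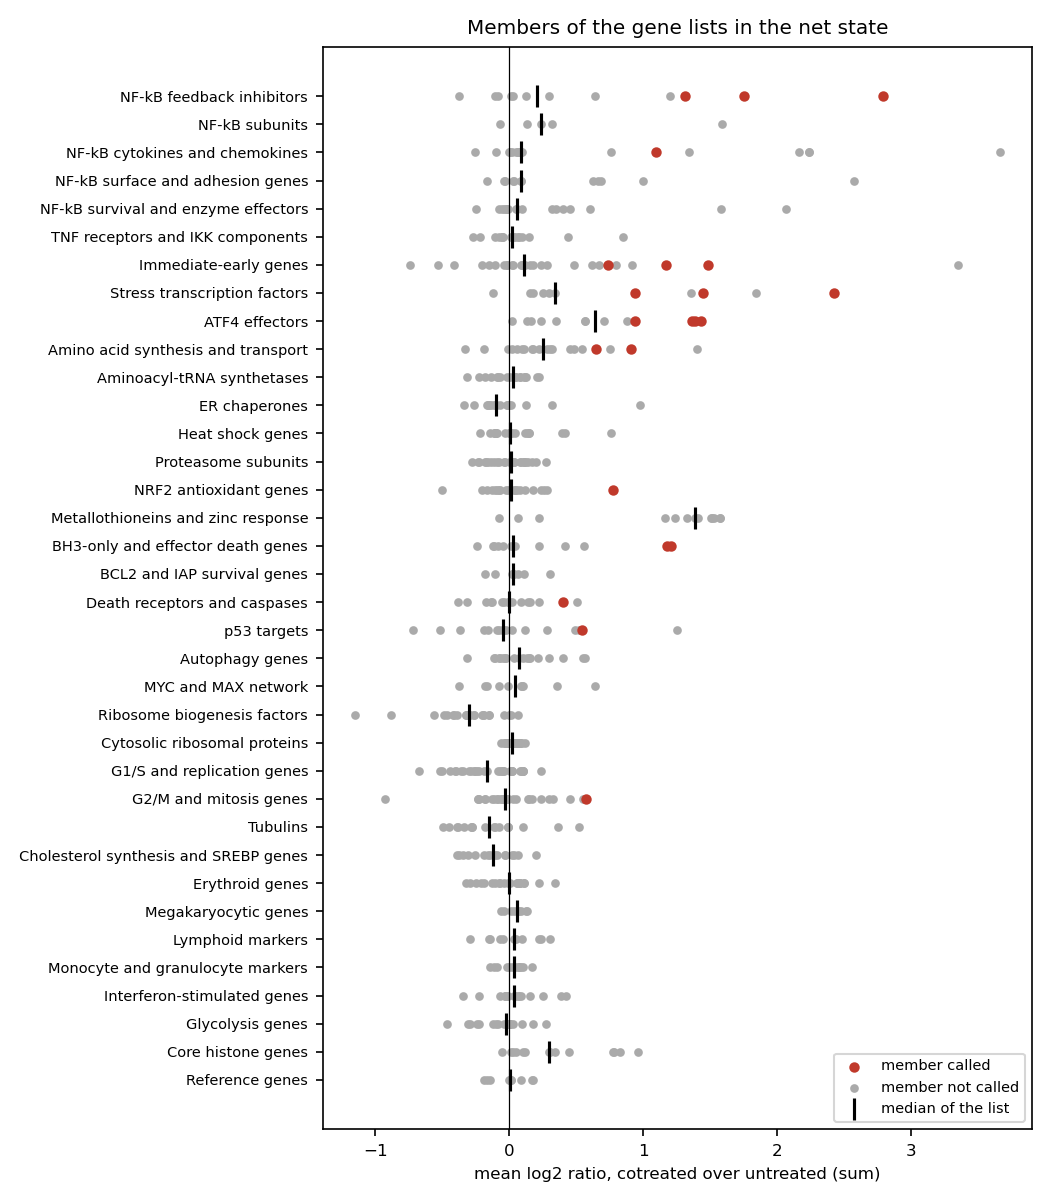
Mean log2 ratio of cotreated over untreated cells (x axis) for each measured member of the 36 gene lists (rows), with called members in red, other members in grey and the median of each list as a black bar. Red points stand mainly in the rows of feedback inhibitors, early genes, stress transcription factors and ATF4 effectors, and the median is highest, at 1.39, for the metallothionein and zinc response list without any red point.

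Whether the net state differed from that under heteronemin alone was tested with the arrays of heteronemin over untreated cells, which share untreated cells with the sum. Heteronemin over untreated cells gave 892 calls (4.87%), 419 higher (2.29%) and 473 lower (2.58%). The difference between the states itself gave 0 calls (0.0%) in limma without a block, with 203 genes (1.11%) at an unadjusted p under 0.05. That share is smaller than the threshold of 0.05, which is about the share reached where nothing differs. The fit without a block thus appears conservative for this difference. With differences taken within a replicate number there was 1 call, with 877 genes at an unadjusted p under 0.05. An additive effect of the number gave 0 calls, with 228 such genes. A missing call does not show equal states, since the median SE of this difference was 0.114 against 0.0928 for the sum. These SEs and the 95% intervals below come from the fit without a block and may be too wide. Stress genes had similar values in the states: DDIT3 was at 2.42 ± 0.25 under heteronemin alone, and cotreated minus heteronemin was 0.01 with a 95% interval from −0.44 to 0.46. For CHAC1 the difference was −0.03 (−0.50 to 0.44), for SESN2 −0.04 (−0.51 to 0.42), and for BBC3 0.10 (−0.25 to 0.45). For JUN it was 0.46, with an interval from −1.99 to 2.90 that leaves its direction unresolved. Among the lowest genes the difference was 0.08 for PLD6 (−0.66 to 0.82) and 0.01 for FJX1 (−0.32 to 0.34).

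**Figure D5:**
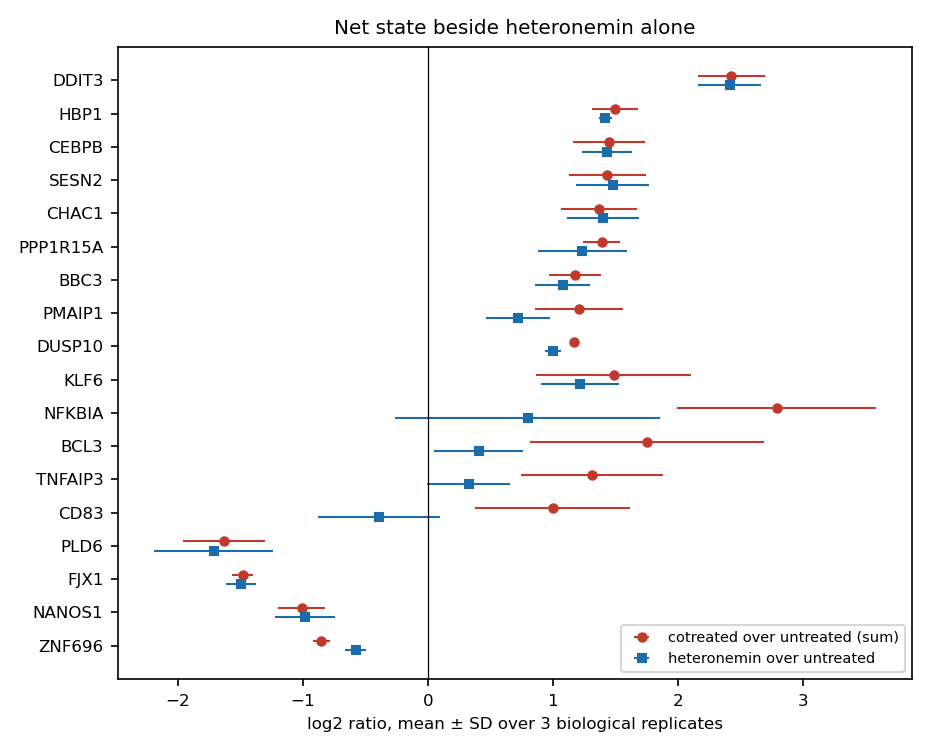
Mean log2 ratio ± SD over 3 biological replicates for 18 named genes (rows) in cotreated over untreated cells (red circles, the sum) and in heteronemin over untreated cells (blue squares). The symbols nearly coincide for DDIT3, CEBPB, CHAC1, PLD6 and FJX1 and lie apart for NFKBIA, BCL3, TNFAIP3 and CD83.

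Several genes with high TNFalpha ratios had larger differences between the states, none of which passed in the fit without a block. NFKBIA was at −0.42, 1.45 and 1.37 under heteronemin alone, and cotreated minus heteronemin was 2.35, 1.52 and 2.11 in the replicates, above 0 in all 3. The mean of 1.99 had a 95% interval from 0.67 to 3.31, but its p adjusted over all genes was 1.00. For BCL3 the difference was 1.35 (0.42 to 2.28), for TNFAIP3 0.98 (0.32 to 1.65) and for PMAIP1 0.48 (0.04 to 0.93), with adjusted p-values of 1.00 each. Same-numbered replicates of heteronemin over untreated and cotreated over TNFalpha-treated cells deviated together. Replicates 2 and 3 also did so across numbers, so whether the numbers pair these comparisons is uncertain. With sums and differences taken within a number, limma called CD83 alone, a surface marker of activated immune cells. Its difference of 1.25, 1.58 and 1.34 in replicates 1 to 3 was close to constant (mean 1.39, adjusted p = 0.0340), although its net value over untreated cells was 0.29, 1.45 and 1.25 and did not pass (adjusted p = 0.392). With an additive effect of the replicate number there were 0 calls for this difference (228 genes at an unadjusted p under 0.05), and CD83 had an adjusted p of 1.00. Under heteronemin alone CD83 was at −0.96, −0.13 and −0.09. Without replicate 1, 13 genes were called and all were higher in cotreated cells, among them CXCL1 at 4.79, CXCL2 at 2.60, CXCL8 at 2.67, IER3 at 2.33 and NFKBIA at 1.81. Replicate 1 had been seen to stand apart in these same values, so these calls are descriptions.

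Of the 10 genes with the smallest p for this difference, 5 in each direction, none passed. NFKBIA, at 1.99, was one of them, and ABCA11P, a transcribed pseudogene, was at 1.82 (−1.42, 0.01 and −0.56 under heteronemin alone). The net value of ABCA11P changed sign with the dye, at 2.88 with the treated RNA in Cy5 and −0.56 in Cy3. The other 8 lay between −0.45 and 0.40. WDR11, a protein of vesicle traffic, differed by 0.40, and its net value was 0.61, 0.32 and 0.49 (mean 0.48 ± 0.15, adjusted p = 0.0414) against 0.07 under heteronemin alone. ZNF696, a zinc finger gene, was at −0.83, −0.79 and −0.92 in cotreated cells (mean −0.85 ± 0.07, adjusted p = 0.00352) and at −0.58 under heteronemin alone, a difference of −0.27 (−0.45 to −0.10). Its TNFalpha part of −0.31 was the lowest among the 15 lowest genes. LINC00326 and AQP4-AS1, both noncoding, differed by −0.45 and −0.27, and REXO1, an RNA exonuclease, and XXYLT1, a xylosyltransferase, by −0.26 and −0.37. With the treated RNA in Cy5 and in Cy3, the net value was −0.93 and 0.66 for LINC00326 and −0.60 and 0.04 for REXO1. Those of AQP4-AS1 and XXYLT1 kept one sign.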

How the data were processed

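RNA of K562 cells was compared on two-colour Agilent arrays. The authors deposited log2 ratios for each array feature, and the submitters' processing notes name limma for them. Which version was run, and how arrays were background-corrected and normalized, is not given in the sources used here. Array titles gave the direction as treated over control. Nearly all mean changes of 2-fold or more had the same sign on both dye-exchanged arrays, in 443 of 443 genes in replicate 1 of cotreated over TNFalpha-treated cells and in 36 of 38 in its replicate 3. Genes were picked by the mean of these same arrays, so this count cannot show whether exchanged arrays had already been turned. Over genes, r between exchanged arrays ran from 0.033 to 0.513, and over all features from −0.243 to 0.477 (median −0.0475). The values were used as deposited, with the direction in the titles. Array medians lay between −0.0145 and 0.0669, so the ratios were centred. Whether arrays were scaled to each other is unknown. No intensities were used, so the depth behind a value is unknown and precision is set by how many arrays there were.

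Of 45220 features, the 31332 with a single gene in the platform annotation were averaged into 18334 genes, and 31291 features matched a current symbol. Features of a called gene could lie far apart, some of them near 0. Net values of features ran from 0.04 to 1.65 in SLC38A2, 0.04 to 1.30 in DUSP16 and 0.04 to 1.69 in CCNG2. Dye-exchanged arrays were averaged, which left 9 values per gene (3 comparisons, 3 biological replicates). In R 4.3.3, limma 3.58.1 estimated a mean for each comparison with a shared spread and empirical Bayes moderation (prior degrees of freedom 2.73). The sum, the sum minus heteronemin over untreated, and each comparison were tested two-sided, with Benjamini-Hochberg adjustment over all genes. An SD is that of the 3 sums taken within a replicate number. The procedure was tested on simulated data with independent residuals and the same spread in every replicate of a gene. These data lacked the wider replicate 1 and the correlated comparisons of the arrays, so that test does not cover them.

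Same-numbered replicates of heteronemin over untreated and cotreated over TNFalpha-treated cells deviated together (r = 0.781, 0.626 and 0.622 across genes). Replicates 2 and 3 of these comparisons also deviated together across numbers (r = 0.479 and 0.555). Different-numbered pairs that held a replicate 1 had r from −0.708 to −0.63. The pattern mainly sets replicate 1 apart and is weak evidence that numbers match. Same-numbered replicates of the parts of the sum deviated in opposite directions (r = −0.326, −0.220 and −0.274). The parts of the sum did not meet the rule for pairing, a positive correlation in every pair, and the sum was fitted without a block, although the negative values show that the parts were not independent. The difference from heteronemin alone was tested in the same fit without a block, although its 2 heteronemin comparisons did meet the rule. The labels do not say whether numbers match across comparisons. Fits with the block are given beside the counts.

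The comparison, the named genes and the 36 gene lists were chosen with earlier results of these data known. The rule for names took, among called genes with the same sign in all 3 sums, the 15 with the highest and the 15 with the lowest net ratio. It added the 12 highest TNFalpha ratios above 0 in every replicate, the 5 smallest p-values in each direction against heteronemin alone, up to 4 list members with the smallest p, and chosen genes of inflammation, stress and death. Alternatives changed the samples fitted, the block, the prior, array weights, scaling, centring, the dye term, the handling of features, the threshold and the replicates used. Promoter sequences are RefSeq's for GRCh38.p14, with 35116 windows searched.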

Additional observations from a re-analysis of the deposited data

Results flagged for a closer look

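CD83 had a difference between cotreated cells and cells given heteronemin alone that passed a test of the difference itself in 1 of 2 fits with the replicate number as a block, that with sums and differences taken within a number. Cotreated minus heteronemin was 1.39 on the log2 scale (limma, adjusted p = 0.0340), from 1.25, 1.58 and 1.34 in replicates 1 to 3. With an additive effect of the number, and without a block, the same value had an adjusted p of 1.00. The groups hold 3 replicates each, too few for a test of single outlying samples.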

How the results depend on the processing

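The 230 calls for cotreated over untreated cells became 91 with only the arrays of the summed comparisons in the fit, 1811 with array weights, 759 with all arrays and a dye term, 125 with genes of 1 feature, 366 with every named feature and 25 at an adjusted p under 0.01. They became 0 with a trended and robust prior (1874 at an unadjusted p under 0.05). Leaving out replicates gave 0 to 1334 calls. With the replicate block, as sums within a number, there were 0 calls (2433 at an unadjusted p under 0.05). With an additive block there were 257, of which 179 were among the 230. The 40 called named genes kept their sign under every alternative. All 230 called genes had one sign in all 3 sums, and the alternatives refit the same arrays, so this was largely fixed in advance. All 40 lost their call with sums taken within a number and with the trended and robust prior. BCL3 was the 1 of the 40 to move by over 1.5 times, in the scaled arrays (1.76 to 2.76). In the same setting 16 uncalled named genes also moved by over 1.5 times and stayed uncalled, among them IER3 (1.59 to 2.82), PLAU (2.07 to 3.13), CD83 (1.00 to 2.00), LTB (1.34 to 2.03), ICAM1 (0.69 to 1.34) and MYC (−0.53 to −0.21). Of the 145 uncalled named genes 7 changed sign in at least 1 alternative. With sums taken from the arrays of each dye orientation alone, a description added after the data were seen, 226 of the 230 genes had the same sign in both orientations, the exceptions being ING3, JARID2, SLC25A4 and SLC35B4. Over all genes this held for 7999 of 18334 (43.6%). The 230 were called on the mean of these same orientations, which favours a shared sign, so their share is no independent support.

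Cotreated against heteronemin gave 1 call in place of 0 with the replicate block as sums within a number (877 at an unadjusted p under 0.05), 0 with the additive block (228 at an unadjusted p under 0.05), and 0 to 13 when replicates were left out. No value of this difference could be computed from the summed comparisons alone.

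TNFalpha over untreated, at 0 calls, gave 1 with only the summed comparisons, 6 and 7 with the replicate block within numbers and additive, 42 with array weights, 3 with scaled arrays, 35 with the dye term, 4 with genes of 1 feature and 0 to 62 without replicates. Heteronemin over untreated (892 calls) gave 0 with the within-number replicate block and with the trended and robust prior, 2680 with array weights, 1760 with the dye term, 480 with genes of 1 feature, 1421 with every feature, 247 at 0.01 and 2 to 2540 without replicates. Cotreated over TNFalpha-treated cells (1200 calls) gave 0, 276, 3445, 2223, 627, 1881 and 352 in the same settings, and 2 to 3397 without replicates. The cause of these moves was not tested, beyond the fewer genes, arrays or replicates that some settings use. Loss of a call without a replicate leaves 2 replicates a comparison and is no measure of a weaker effect.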

Other observations

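Gene families grouped by symbol after the values were seen are given as descriptions. Over all genes 0.78% were called higher, 0.475% were called lower and 52.3% had a mean above 0. Of 78 mitochondrial ribosomal proteins, 3 fell (MRPS17, MRPL24 and MRPL36), none rose and 10 means were above 0. Their median was −0.15, from −0.22, −0.11 and −0.08 in the replicates, against 0.007 over all genes. MRPL24 was at −0.78, −0.48 and −0.45 (limma, adjusted p = 0.0329) and MRPL36 at −0.69, −0.48 and −0.46 (adjusted p = 0.0458). Of 7 GEMIN genes 2 fell, GEMIN6 and GEMIN5, the latter at −0.76, −0.70 and −0.69 (adjusted p = 0.0194).

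Host transcripts of small nucleolar RNAs included 2 that rose among 18. GAS5 was at 1.43, 0.94 and 0.58 (mean 0.98 ± 0.42, adjusted p = 0.0369), and SNHG12 was at 1.22, 0.73 and 0.81 (mean 0.92 ± 0.26, adjusted p = 0.0149). Of 479 ZNF zinc finger genes 9 rose (1.88%) and 2 fell (0.418%), and 312 (65.1%) had a mean above 0, with a median of 0.06. Their median was −0.04, 0.12 and 0.08 in replicates 1 to 3, so replicate 1 differed in sign. ZNF92 was at 0.74, 0.86 and 0.78 (adjusted p = 0.0292). The mRNA decapping genes DCP1A and DCP2 rose by 0.55 and 0.36. CCNG2, an unconventional cyclin, rose by 0.87 ± 0.29 (adjusted p = 0.0425), and KLHL24, a ubiquitin ligase adaptor, was at 1.15, 0.98 and 0.74 (adjusted p = 0.0404).

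Called genes without a call under heteronemin alone were, beside BCL3, NFKBIA, OPTN, TNFAIP3 and WDR11, the higher genes NCOA7 (0.75 net against 0.33 under heteronemin), SIRT1 (0.58 against 0.26) and RAPGEF2 (0.35 against 0.16), and the lower genes MRM2 (−0.59 against −0.27) and WT1-AS (−0.60 against −0.25). None of these differences passed the test of the difference itself.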
